A study of Drosophila melanogaster with 46 samples.

Results

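The UDP-glycosyltransferases (UGTs) of Drosophila melanogaster were examined in whole females of 2 selection lines, 3 diets and 2 age classes. Members were all genes whose symbol in the annotation of the array begins with Ugt followed by a number, taken from probe sets that name a single gene. This gave 35 of the 11982 genes so annotated, each read by 1 probe set, and the 35 symbols matched the 35 UGT genes that RefSeq lists for this species.

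SR flies came from a line selected for starvation resistance and C flies from an unselected control line, with 1 line chosen for each regime, so a difference between SR and C flies is a difference between 2 particular lines. Virgin females were held at 5 per vial on food whose yeast and sugar were at 0.5 times (malnutrition), 2 times (optimal food) or 5 times (overfeeding) the concentration of the standard medium. Middle-aged flies were collected at 90% survival of their cohort and old flies at 10% survival, so the ages are demographic landmarks and not days. Each array carried RNA of 5 pooled whole females, with 4 arrays per group in 10 groups and 3 arrays in the other 2 (old C flies, malnourished or overfed), 46 arrays in all. Values are log2 probe set levels after robust multi-array averaging (RMA). In whole flies, fewer cells of a type and less RNA per cell cannot be told apart.

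UGTs are membrane enzymes of the endoplasmic reticulum that transfer a sugar from a UDP-sugar to small fat-soluble molecules, which makes these easier to excrete. In insects the sugar is usually glucose, and the family acts on plant toxins, insecticides, pigments, hormones and odorants alongside cytochromes P450 and glutathione S-transferases. Expression is known from the midgut, the Malpighian tubules (the excretory organ), the fat body and the antennae, and many of the genes lie in tandem arrays formed by duplication.

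The 35 UGT genes spanned a wide range of array levels. Ugt316A1 was the brightest, with a mean of 10.63 and values between 9.96 and 11.00 over the 46 arrays. Ugt302C1 (formerly Ugt86Da) followed at 9.30 and Ugt36E1, a gene with a role in olfaction, at 8.75. The dimmest were Ugt35E2 at 3.51, Ugt35D1 at 3.48 and Ugt49B2 at 3.43, which is the range of male accessory gland and testis markers in these females (gene means of 2.98 to 3.82). A level of 5, close to the median of all values (5.14), was reached by the means of 17 members, and 13 stood at 5 or more on all arrays. The other 18 members had means below 5, and 11 of them reached 5 on no array. Levels of different probe sets also depend on the probes, so this order describes array signal and not transcript number.

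**Figure D1:**
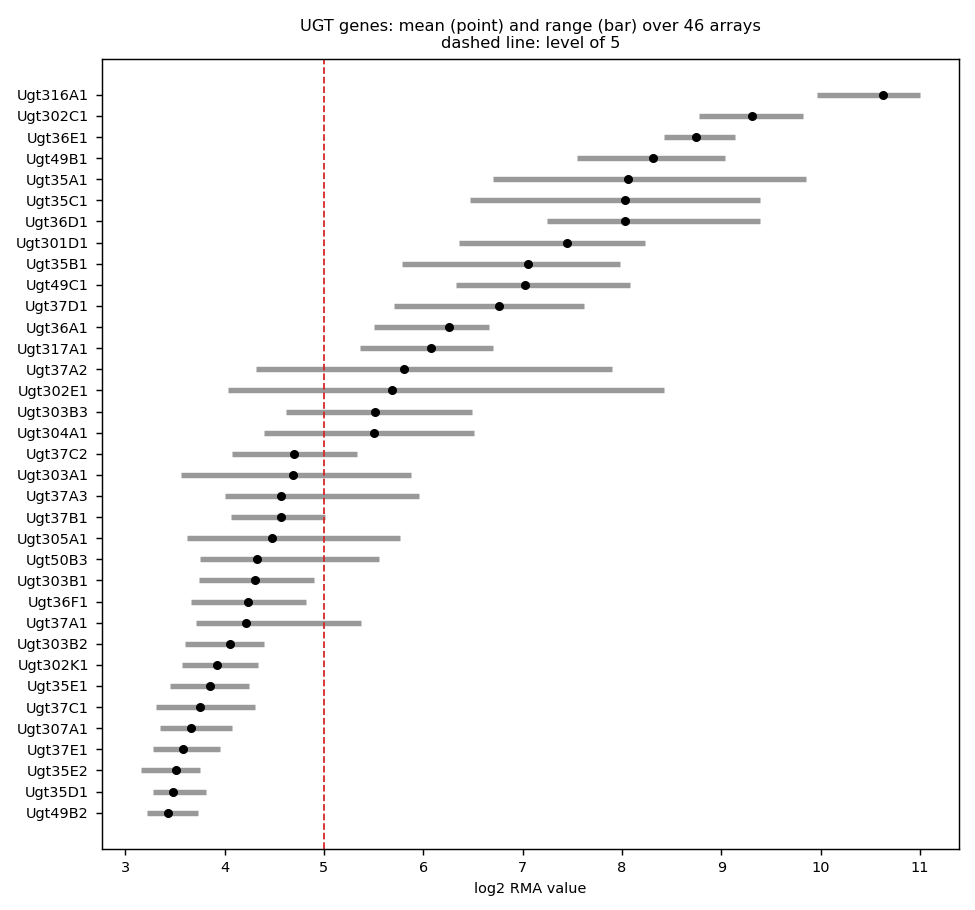
Mean (point) and range over 46 arrays (bar) of the log2 RMA value of each of the 35 UGT genes, with a dashed line at 5. Ugt316A1 leads at 10.63 and 18 members have means below 5.

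Members varied more between arrays than most probe sets. The median SD over the 46 arrays was 0.30 for UGT genes and 0.18 for all 18952 probe sets, and 29 members had an SD above the median of all probe sets. Ugt302E1 had the widest spread, from 4.03 to 8.43, followed by Ugt37A2 (4.32 to 7.90) and Ugt35A1 (6.70 to 9.85). The 8.43 of Ugt302E1 came from 1 array of old C flies on optimal food, whose other 3 stood at 6.35 to 6.65. Of the 12 group means of Ugt302E1, the lowest was that of old SR flies on malnutrition (4.40) and the highest that of old C flies on optimal food (6.96 with that array). The same pair of groups held the lowest and highest means of Ugt35A1, Ugt304A1, Ugt303A1, Ugt37A2, Ugt49B1, Ugt301D1 and Ugt303B2.

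Across the series, replicate arrays of a group correlated at 0.974 to 0.998 and array medians ran from 5.04 to 5.27. Markers of female tissues were present in all groups. The mean level of 6 midgut genes lay between 9.29 and 12.21 on single arrays, that of 6 fat body and yolk genes between 7.50 and 11.76 and that of 12 ovary genes between 7.60 and 10.07.

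UGT expression was lower on malnutrition. Compared with optimal food and averaged over both lines and ages, 18 of the 35 UGT genes were lower and 0 were higher at an adjusted p below 0.05 (limma, adjusted over all 18952 probe sets, as in all comparisons here), and 27 of 35 changes were negative. Among all probe sets, 13.5% were lower and 18.2% higher in the same comparison. The median change was -0.21 for UGT genes and -0.0019 for all probe sets. The genes that fell comprised 10 of the 17 members with means of 5 or more. With each array left out in turn, 14 of the 18 calls persisted every time. The exceptions were Ugt35A1, Ugt37A2, Ugt37A3 and Ugt37A1, lost without any 1 of 13, 6, 18 and 6 of the 31 arrays. Their adjusted p reached 0.119 without the first array of old C flies on malnutrition (Ugt35A1), 0.0725 and 0.0998 without the second (Ugt37A2 and Ugt37A3) and 0.0642 without the third (Ugt37A1).

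The largest falls came from genes of one tandem array on chromosome arm 3R. Ugt302E1 changed by -1.02 ± 0.17 (SE, adjusted p = 7.72e-06) and Ugt35C1 by -1.02 ± 0.14 (adjusted p = 1.14e-07), each a 2.03-fold lower level. Ugt35C1, formerly Ugt86Dd, is known for its part in the resistance of larvae to nicotine. Ugt304A1 changed by -0.83 ± 0.11 (1.78-fold, adjusted p = 1.77e-07) and Ugt35B1, a gene expressed in the antenna, by -0.70 ± 0.11 (1.62-fold, adjusted p = 2.23e-06). Outside this array, the steepest fall was that of Ugt37D1, at -0.69 ± 0.10 (1.61-fold, adjusted p = 3.68e-07). The other members that fell changed by between -0.52 (Ugt37A2) and -0.20 (Ugt37A1).

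On single arrays the fall of Ugt302E1 was clearest in old flies. Old SR flies stood at 5.51, 6.18, 6.99 and 7.17 on optimal food and at 4.03, 4.07, 4.62 and 4.86 on malnutrition. Old C flies stood at 6.35, 6.43, 6.65 and 8.43 on optimal food and at 5.10, 5.46 and 5.69 on malnutrition. In neither line did the arrays of the diets overlap. The change was -2.06 ± 0.34 in old SR flies (4.18-fold, adjusted p = 1.35e-05) and -1.55 ± 0.37 in old C flies (2.93-fold, adjusted p = 0.00197), and both calls persisted with each array left out.

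Ugt35C1 behaved alike in old flies. Old SR flies had values of 8.37, 8.82, 9.19 and 9.39 on optimal food against 6.49, 7.37, 7.58 and 7.65 on malnutrition. Old C flies had 7.90, 8.24, 8.36 and 8.51 against 6.47, 6.54 and 7.89. All malnourished arrays lay below all arrays on optimal food in each line, although in C flies the nearest pair differed only in the second decimal. The changes were -1.67 ± 0.27 (3.18-fold, adjusted p = 1.13e-05) in old SR and -1.29 ± 0.29 (2.44-fold, adjusted p = 0.00134) in old C flies. In middle-aged C flies the values were 7.51, 7.99, 8.13 and 8.32 on optimal food and 6.47, 7.26, 7.37 and 7.49 on malnutrition, a change of -0.84 ± 0.27 (adjusted p = 0.0304) that lost its call when any 1 of 4 of the 8 arrays was left out, with an adjusted p of up to 0.141 (without the third malnourished array). In middle-aged SR flies the change was -0.30 ± 0.27 and did not pass the test (adjusted p = 0.516).

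**Figure D2:**
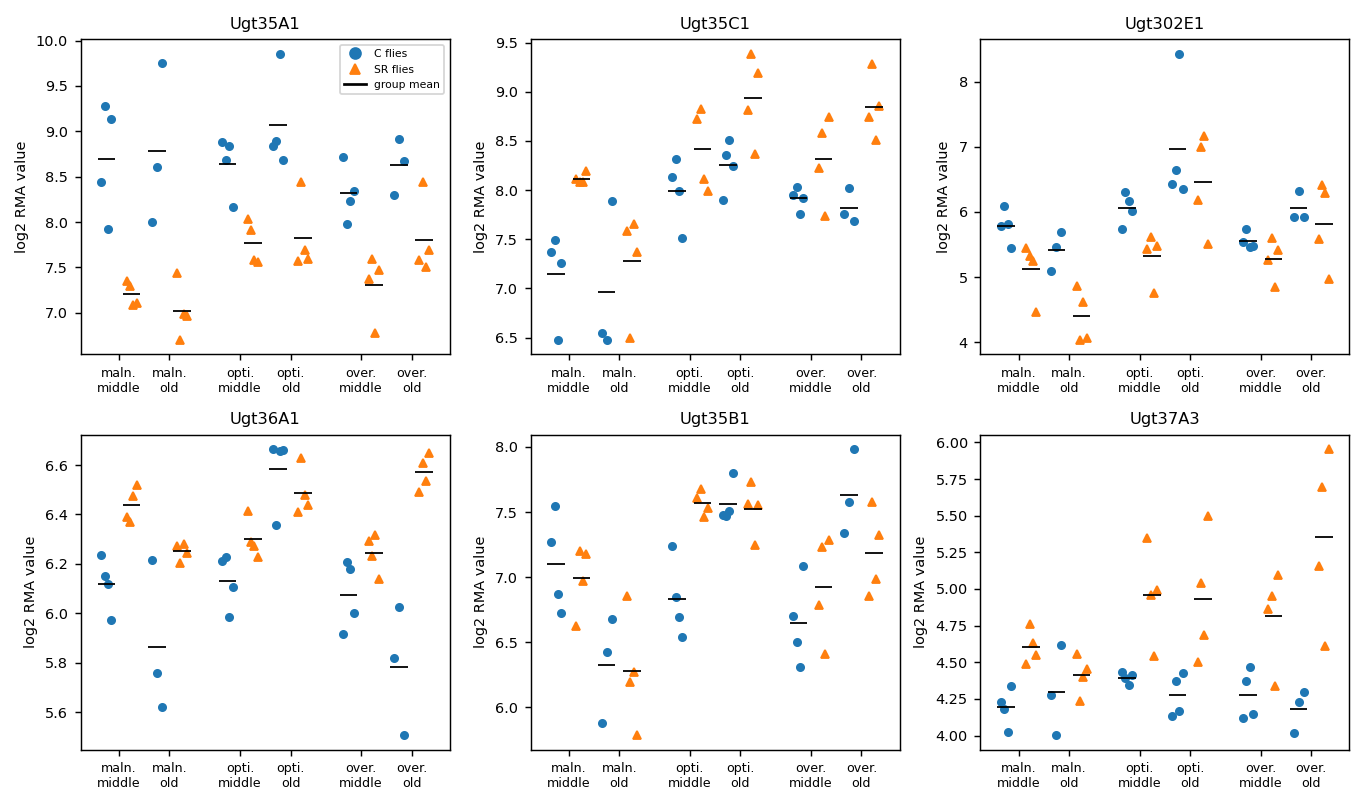
Log2 RMA values of 6 UGT genes on every array, grouped by diet (malnutrition, optimal food, overfeeding) and age class, with circles for C flies, triangles for SR flies and a line at each group mean; vertical scales differ between panels. The mean of Ugt35A1 is lower in SR flies in all 6 combinations of diet and age, and in each line the lowest means of Ugt302E1 and Ugt35C1 are those of old flies on malnutrition.

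Within single combinations of line and age, the calls concentrated in old flies. Malnutrition lowered 12 UGT genes in old C flies (background of 7.97% lower and 9.52% higher) and 12 in old SR flies (8.00% lower and 8.24% higher), and of these 9 and 7 persisted with each array left out. In middle-aged flies it lowered 1 gene in C (Ugt35C1, background of 5.09%) and 2 in SR flies (Ugt37D1 and Ugt37B1, background of 6.40%), none of which persisted with each array left out. No UGT gene was higher on malnutrition in any of the 4 combinations, whereas 9.03% of all probe sets were in middle-aged C and 7.36% in middle-aged SR flies. The count for old SR flies ran from 7 to 17 as single arrays were left out, with 7 without the second array on optimal food.

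The test of the age dependence itself was called for 2 genes in C flies, or 5.71% of members, close to the background of 5.20%. It was called for 0 in SR flies (0.670%), where 6 genes had an unadjusted p below 0.05. The lowest difference in SR flies was that of Ugt302E1, at -1.86, which was not called. In SR flies 1 member was called without dim probe sets, with array medians subtracted or with the replicate block. In C flies the change of Ugt35B1 on malnutrition was 0.27 ± 0.22 in middle-aged flies, which did not pass the test, and -1.24 ± 0.23 in old flies (adjusted p = 0.000122), a difference of -1.51 ± 0.32 (adjusted p = 0.00447). Ugt35B1 stood at 6.54, 6.69, 6.84 and 7.24 in middle-aged C flies on optimal food and at 6.73, 6.87, 7.27 and 7.55 on malnutrition, ranges that overlapped. Old C flies had 7.47, 7.48, 7.51 and 7.80 on optimal food and 5.88, 6.42 and 6.68 on malnutrition, with no overlap. The other gene was Ugt36A1, formerly Dot (Dorothy), whose enhancer is active in pericardial nephrocytes and blood cells, with a difference of -0.71 ± 0.14 (adjusted p = 0.00338). Both calls persisted with each array left out. The difference in the malnutrition response between SR and C flies was called for 0 members in middle-aged (background of 2.13%) and old flies (0.285%), with 4 and 3 members at an unadjusted p below 0.05.

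**Figure D3:**
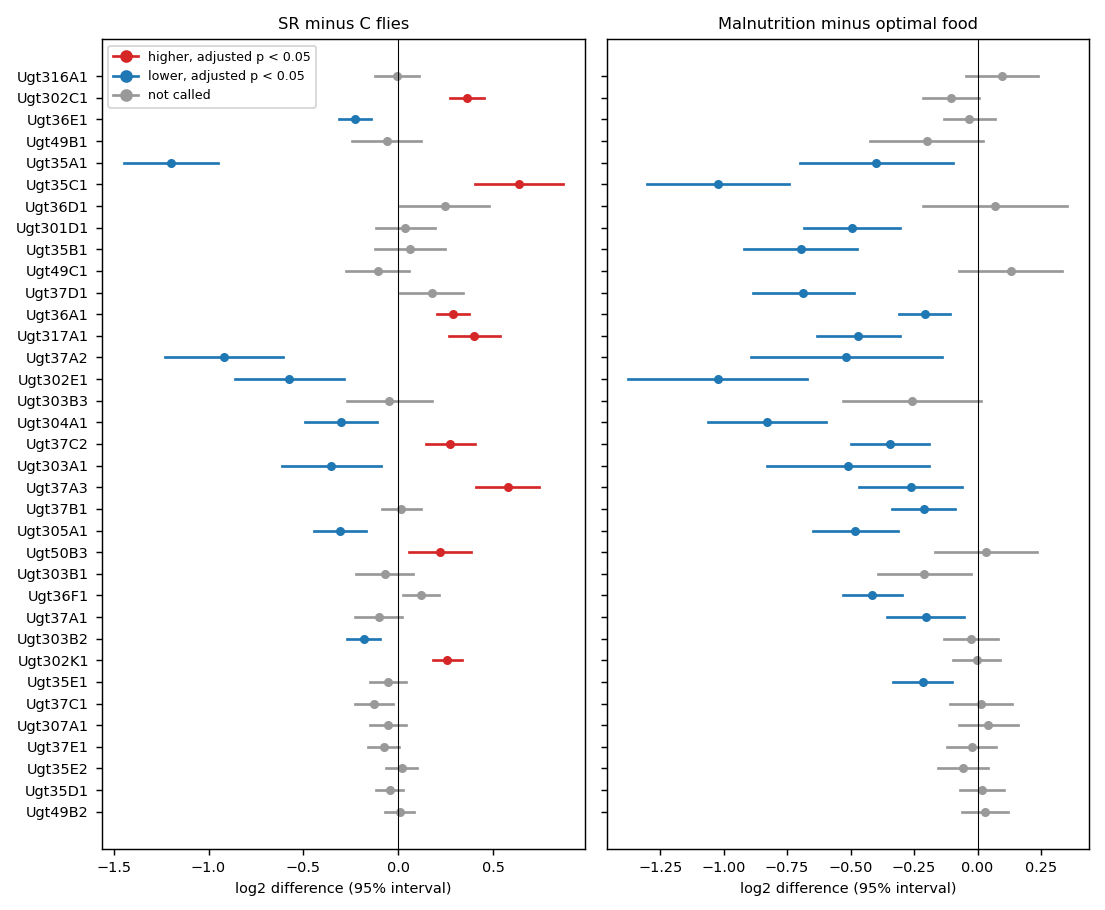
Log2 difference of each UGT gene between SR and C flies over 6 combinations of diet and age (left) and between malnutrition and optimal food over 4 combinations of line and age (right), with 95% intervals and genes ordered by mean level. On the left 8 genes are higher and 8 lower, and on the right 18 are lower and 0 higher.

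Tissue markers shifted with malnutrition as well. All 6 midgut genes read (digestive proteases and sugar-cleaving enzymes among them) were lower, with a median change of -1.14, as were 4 of 5 Malpighian tubule genes (median -0.51), 4 of 6 fat body and yolk genes (-1.31) and 7 of 12 ovary genes (-0.42). All 3 eye genes and all 3 neuron genes were higher, with median changes of 1.07 and 0.47. Among all probe sets, 13.5% were lower and 18.2% higher in this comparison. The mean midgut level ran from 9.29 to 10.86 in old SR flies on malnutrition and from 11.52 to 12.10 on optimal food, and the mean Malpighian tubule level from 6.45 to 7.24 against 7.57 to 7.86. In middle-aged C flies, in which 1 UGT gene was lower, 0 of 6 midgut genes were called. In middle-aged SR flies, in which 2 UGT genes were lower, 5 of 6 midgut genes (median -0.92) and 4 of 5 Malpighian tubule genes (median -0.69) were lower. The part of tissue composition in the fall of UGT genes was not tested.

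Few UGT genes differed on overfeeding. Averaged over lines and ages, 3 UGT genes were lower and 0 higher (background of 8.18% lower and 8.11% higher), or 2 lower and 1 higher with array medians subtracted. Ugt36A1 changed by -0.21 ± 0.05 (adjusted p = 0.00571) and kept its call with each array left out. Ugt302E1 (-0.52 ± 0.17, adjusted p = 0.0343) and Ugt302C1 (-0.15 ± 0.05, adjusted p = 0.0499) lost theirs without any 1 of 10 and 21 of the 31 arrays, with an adjusted p of up to 0.0695 (without the fourth array of overfed old SR flies) and 0.104 (without the first of overfed old C flies).

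In single combinations, Ugt36A1 was called in old C flies. It stood at 5.51, 5.82 and 6.02 in old C flies on overfeeding and at 6.36, 6.66, 6.66 and 6.66 on optimal food, a change of -0.80 ± 0.11 (1.74-fold, adjusted p = 2.32e-05) without overlap. On malnutrition, old C flies had values of 5.62, 5.76 and 6.22, lower than on optimal food by -0.72 ± 0.11 (1.65-fold, adjusted p = 2.72e-06). This was the only UGT gene called for overfeeding in any single combination of line and age, against backgrounds of 0.871% in old C flies and 0.0106%, 1.10% and 0.248% in middle-aged C, middle-aged SR and old SR flies. At an unadjusted p below 0.05 there were 6 UGT genes in old C flies and 0, 5 and 1 in the other 3 combinations. The difference between the responses of the lines to overfeeding was not tested.

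SR and C flies differed in the expression of 16 UGT genes over all diets and ages, of which 8 were higher and 8 lower in SR flies, beside 11.4% and 8.80% of all probe sets. Of these, 4 of the higher and 3 of the lower genes had means below 5. The median difference was -0.05 for UGT genes and -0.0072 for all probe sets, so the family had no common direction. With each array left out, 14 of the 16 calls persisted. The exceptions were Ugt303A1, lower by -0.35 ± 0.13, and Ugt50B3, higher by 0.22 ± 0.08, which were lost without any 1 of 29 and 34 of the 46 arrays and reached an adjusted p of 0.0939 and 0.0822 without the first array of overfed old C flies. Because the lines may also differ in sequence under the probes, a difference in transcript level and one in hybridisation cannot be told apart. The probe sets of Ugt50B3, Ugt36E1 and Ugt37D1 are of the kind shared by several transcripts, and cross-hybridisation among related UGT genes was not tested.

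The largest difference between the lines was in Ugt35A1, the former Ugt35a. The 22 arrays of C flies ranged from 7.93 to 9.85 with a median of 8.68, and the 24 arrays of SR flies from 6.70 to 8.44 with a median of 7.54. Ugt35A1 was lower in SR flies by -1.20 ± 0.12 (2.30-fold, adjusted p = 5.74e-10). All 6 combinations of diet and age had a negative difference, between -1.76 and -0.82, and in 5 of them the arrays of the lines did not overlap and the difference was called. On malnutrition, old C flies had values of 8.00, 8.60 and 9.75 and old SR flies 6.70, 6.96, 6.99 and 7.44, a difference of -1.76 ± 0.32 (3.39-fold, adjusted p = 0.000319). Middle-aged flies on malnutrition had 7.93, 8.44, 9.14 and 9.28 in C and 7.08, 7.11, 7.30 and 7.35 in SR, a difference of -1.48 ± 0.29 (2.80-fold, adjusted p = 0.00106). These 2 calls persisted with each array left out, whereas the 3 on other diets did not. Their adjusted p reached 0.106 in middle-aged flies on optimal food (without the fourth SR array), 0.142 in overfed middle-aged flies (without the first C array) and 0.0597 in old flies on optimal food (without the third C array).

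Ugt37A2 was the next lowest in SR flies. It ranged from 4.97 to 7.90 in C flies (median 6.32) and from 4.32 to 6.76 in SR flies (median 5.33), and the lines overlapped over part of their range. The difference was -0.92 ± 0.15 (1.89-fold, adjusted p = 1.35e-05). Ugt37A3, its neighbour on 3R and a dim gene with a mean of 4.57, differed in the opposite direction by 0.58 ± 0.08 (1.49-fold, adjusted p = 8.69e-07). In overfed old flies Ugt37A3 stood at 4.02, 4.23 and 4.30 in C and at 4.61, 5.15, 5.69 and 5.96 in SR flies, a difference of 1.17 ± 0.21 (2.25-fold, adjusted p = 0.000452) without overlap.

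Opposite directions among neighbours were also seen in the tandem array of 10 UGT genes on 3R. In the order of the chromosome these are Ugt35C1, Ugt302K1, Ugt302E1, Ugt302C1, Ugt35E1, Ugt35E2, Ugt35B1, Ugt35A1, Ugt304A1 and Ugt303A1, with at most 2 other genes between neighbours. Ugt35C1 (0.64 ± 0.11), Ugt302K1 (0.26 ± 0.04) and Ugt302C1 (0.36 ± 0.04) were higher in SR flies, whereas Ugt302E1 (-0.57 ± 0.14), Ugt35A1, Ugt304A1 (-0.30 ± 0.09) and Ugt303A1 were lower, and the remaining 3 did not pass the test. Of the called genes, Ugt302K1 and Ugt303A1 were dim, with means of 3.92 and 4.69, and Ugt302K1 exceeded 4.34 on no array. The adjusted p was 4.1e-08 for Ugt302C1, 1.18e-06 for Ugt302K1, 3.89e-05 for Ugt35C1, 0.00246 for Ugt302E1 and 0.0173 for Ugt304A1. Ugt302C1 ranged from 8.77 to 9.55 in C flies and from 9.18 to 9.82 in SR flies, and its difference was positive in all 6 combinations of diet and age.

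**Figure D4:**
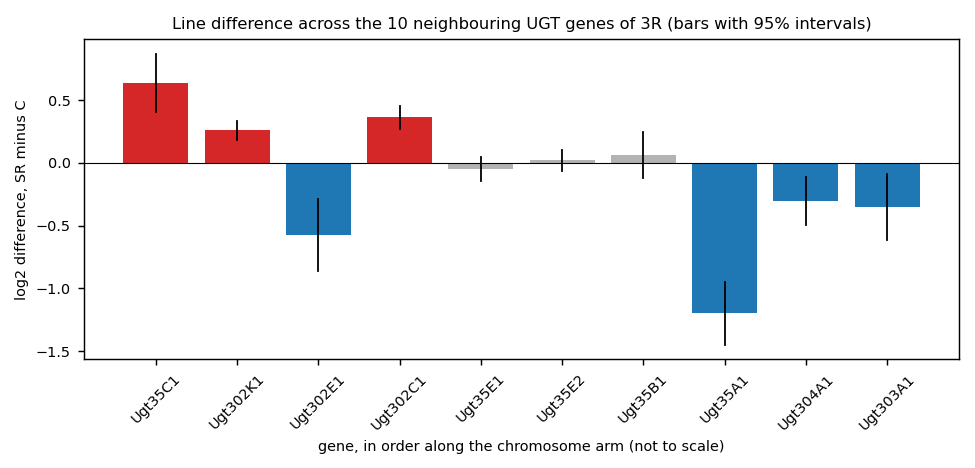
Log2 difference between SR and C flies (bars, with 95% intervals) of the 10 UGT genes of the 3R tandem array in chromosomal order, with spacing not to scale; red is higher and blue lower at an adjusted p below 0.05, grey did not pass. The genes range from 0.64 (Ugt35C1) to -1.20 (Ugt35A1).

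Outside this array and the Ugt37A pair, SR flies were higher in Ugt317A1 (0.40 ± 0.07, adjusted p = 9.94e-06), Ugt36A1 (0.29 ± 0.04, adjusted p = 7.19e-07) and Ugt37C2 (0.28 ± 0.06, adjusted p = 0.00103). They were lower in Ugt305A1 (-0.31 ± 0.07, adjusted p = 0.000648), Ugt36E1 (-0.23 ± 0.04, adjusted p = 3.68e-05) and Ugt303B2 (-0.18 ± 0.04, adjusted p = 0.00145). Ugt37C2, Ugt305A1 and Ugt303B2 were dim, with means of 4.70, 4.47 and 4.06, and Ugt303B2 exceeded 4.40 on no array. Ugt36A1 differed most in overfed old flies, where C flies had 5.51, 5.82 and 6.02 and SR flies 6.49, 6.53, 6.61 and 6.65, a difference of 0.79 ± 0.11 (1.73-fold, adjusted p = 3.21e-06) without overlap.

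By diet and age, the lines differed in 9 UGT genes in middle-aged flies on optimal food (background of 16.7%), in 3 on malnutrition (3.41%) and in 4 on overfeeding (4.47%). In old flies there were 3 on optimal food (4.35%), 3 on malnutrition (3.59%) and 4 on overfeeding (2.55%). Subtracting array medians moved the split of higher and lower calls in middle-aged flies from 5 and 4 to 3 and 6 on optimal food, from 1 and 2 to 3 and 2 on malnutrition and from 2 and 2 to 2 and 1 on overfeeding, and in old flies on malnutrition from 2 and 1 to 2 and 2. Most of these calls depended on single arrays, and 9 of them persisted with each array left out: Ugt302C1, Ugt36E1 and Ugt317A1 in middle-aged flies on optimal food, Ugt302C1 in overfed middle-aged flies, Ugt35A1 at both ages on malnutrition, Ugt36A1 and Ugt37A3 in overfed old flies, and Ugt50B3 in old flies on malnutrition. Ugt50B3, a dim gene with a mean of 4.33, had 3.76, 3.89 and 4.08 in old C flies and 4.53, 4.90, 5.09 and 5.16 in old SR flies on malnutrition, higher by 1.01 ± 0.21 (2.02-fold, adjusted p = 0.00198). Over the 6 combinations its difference between the lines ran from -0.51 to 1.01, so it did not keep a direction. In overfed old flies Ugt35C1 was higher in SR flies by 1.03 ± 0.29 (adjusted p = 0.0471), a call that was lost with the replicate number as a block (adjusted p = 0.0545) and without any 1 of 6 of the 7 arrays (adjusted p of up to 0.189, without the third C array).

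Among marker lists, of 5 Malpighian tubule genes 3 were higher in SR flies and of 5 antenna genes 3 were higher, while 2 of 6 midgut genes were lower. Among all probe sets, 11.4% were higher and 8.80% lower. Counts of the other marker lists are not given here. The part of tissue composition in the UGT differences between the lines was not tested.

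With age, UGT genes were called mainly in C flies on optimal food, where 26.0% of all probe sets were called in either direction. There, 9 UGT genes were higher and 2 lower in old than in middle-aged flies, beside 9.76% and 16.3% of all probe sets, with a median change of 0.21 against -0.03. With array medians subtracted, 6 were higher and 5 lower. Among these, 5 rises persisted with each array left out. Ugt305A1 rose by 0.73 ± 0.16 (1.66-fold, adjusted p = 0.00181), Ugt35B1 by 0.73 ± 0.22 (1.66-fold, adjusted p = 0.0111) and Ugt49C1 by 0.70 ± 0.20 (1.62-fold, adjusted p = 0.00889). Ugt36A1 rose by 0.45 ± 0.10 (1.37-fold, adjusted p = 0.00155) and Ugt302C1 by 0.37 ± 0.11 (1.29-fold, adjusted p = 0.00955).

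The arrays of the 2 ages did not overlap for these genes. Ugt305A1 stood at 4.46, 4.55, 4.59 and 4.64 in middle-aged and at 4.84, 5.14, 5.44 and 5.76 in old C flies. Ugt49C1 stood at 6.41, 6.57, 6.59 and 6.85 against 6.97, 7.28, 7.42 and 7.53, and Ugt36A1 at 5.98, 6.11, 6.21 and 6.23 against 6.36, 6.66, 6.66 and 6.66. Non-overlap of this kind held for 11 UGT genes and for 22.9% of all probe sets.

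The remaining 6 calls in this comparison rested on single arrays, and their count fell from 11 to 5 without the third array of old C flies on optimal food. Without that array Ugt302E1, which it held at 8.43 beside 6.35 to 6.65 on the other 3, reached an adjusted p of 0.397 (0.91 ± 0.34 and adjusted p = 0.0447 with it), Ugt49B1 0.159, Ugt36E1 0.107 and Ugt316A1 0.0916. Ugt301D1 and Ugt36F1 were lost without any 1 of 6 and 4 arrays, with an adjusted p of up to 0.198 (without the fourth old array) and 0.0732 (without the third middle-aged array). With all arrays, the 2 falls were those of Ugt316A1, the brightest member, by -0.47 ± 0.14, and of Ugt36E1, by -0.31 ± 0.10. In the same comparison, mean marker levels rose from 11.49 to 11.91 for midgut and from 7.10 to 7.37 for Malpighian tubule genes, with overlapping arrays. Those of eye genes rose from 9.65 to 10.12 without overlap. The means of ovary genes were 8.79 and 8.63, with overlapping arrays (8.21 to 9.71 in middle-aged and 7.95 to 10.07 in old flies). The part of tissue composition in these UGT changes was not tested.

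On overfeeding, 1 UGT gene was called for age in C flies (background of 1.24%). Ugt35B1 stood at 6.31, 6.50, 6.70 and 7.08 in middle-aged and 7.34, 7.58 and 7.98 in old flies, a difference of 0.98 ± 0.23 (adjusted p = 0.0228) that reached an adjusted p of 0.271 without the third array of old flies and was lost without any 1 of 4 of the 7 arrays. On malnutrition in C flies 0 genes were called by limma (background of 0.823%), with 6 at an unadjusted p below 0.05. In SR flies 0 were called on malnutrition (0.327%), optimal food (0.955%) and overfeeding (1.79%), with 3, 6 and 7 at an unadjusted p below 0.05.

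That C flies had calls on optimal food and SR flies had none does not show that the lines aged differently in these genes. The median age change of UGT genes was 0.21 in C and 0.06 in SR flies on optimal food. It was 0.14 and 0.18 on overfeeding, and -0.16 and -0.06 on malnutrition. The test of the difference called 0 UGT genes on malnutrition, optimal food and overfeeding (limma, backgrounds of 0.0264%, 5.26% and 0.0950%), with 1, 6 and 3 at an unadjusted p below 0.05. Averaged over lines and diets, 4 genes were higher and 1 lower in old flies, beside 8.86% and 9.32% of all probe sets, or 3 higher and 2 lower with array medians subtracted. Ugt49C1 rose by 0.46 ± 0.08 (adjusted p = 0.000107) and Ugt305A1 by 0.41 ± 0.07 (adjusted p = 3.18e-05), and the change of each was positive in all 6 combinations of line and diet. Ugt36F1 rose by 0.17 ± 0.05 (adjusted p = 0.00976) and Ugt302C1 by 0.14 ± 0.04 (adjusted p = 0.0201), while Ugt37B1 fell by 0.22 ± 0.05 (adjusted p = 0.00222) and was lower in all 6 combinations. These 5 calls persisted with each array left out, but that of Ugt302C1 was lost when array medians were subtracted.

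**Figure D5:**
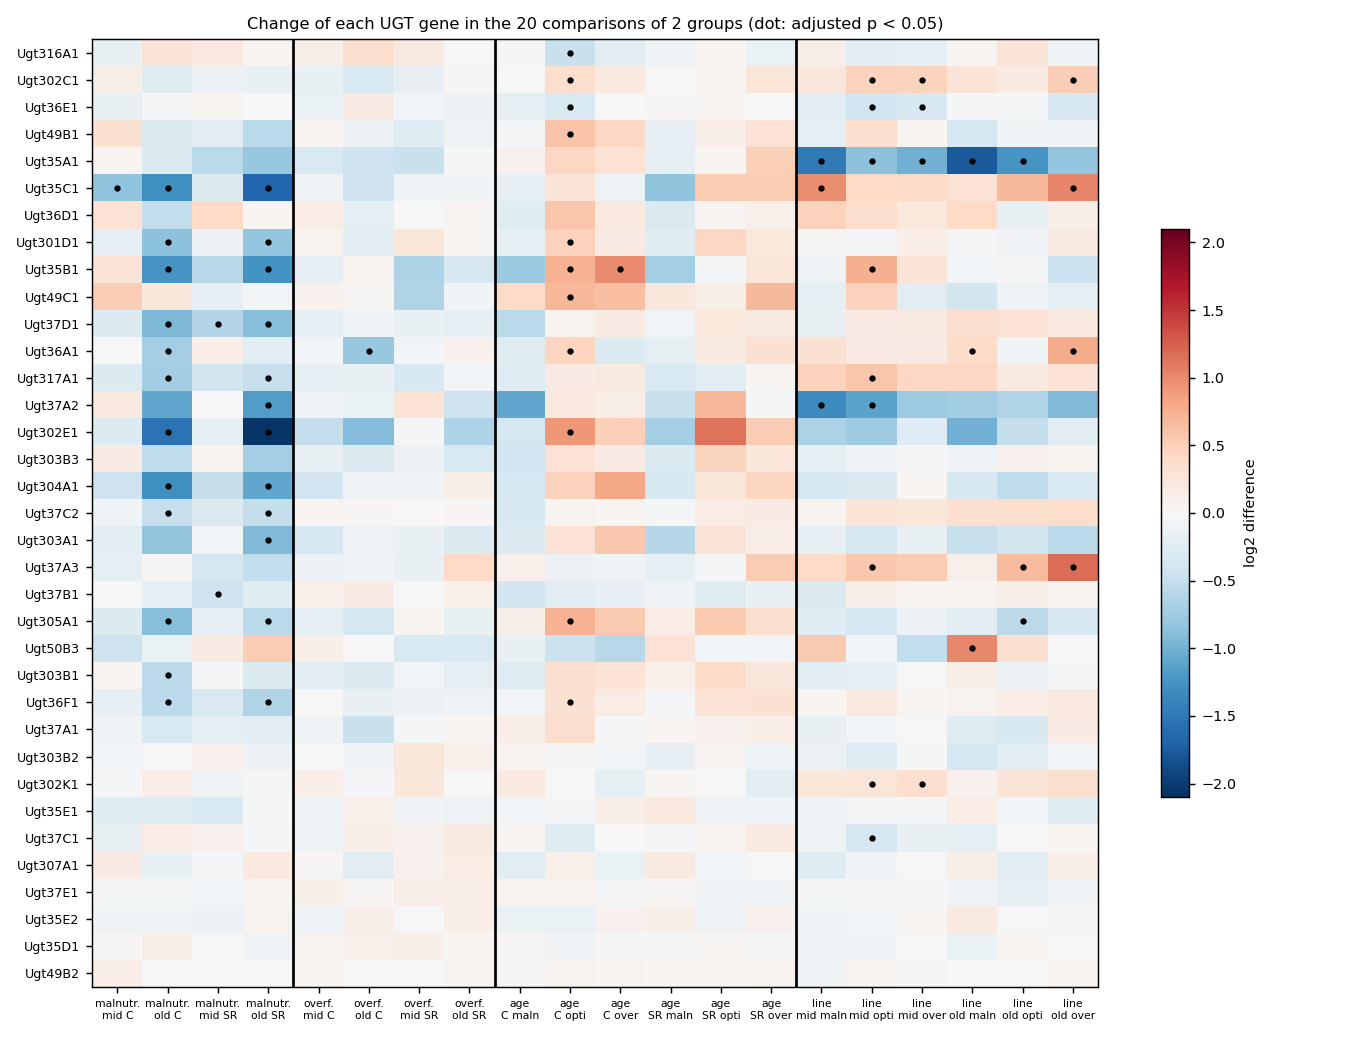
Log2 difference (colour) of the 35 UGT genes, ordered by mean level, in 20 comparisons of 2 groups: malnutrition or overfeeding minus optimal food, old minus middle-aged, and SR minus C, with dots at an adjusted p below 0.05 (mid, middle-aged; maln, malnutrition; opti, optimal food; over, overfeeding). Dots for malnutrition are all on falls and lie mostly in old flies, 12 in each line.

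Over all 31 contrasts, 28 of the 35 UGT genes were called at least once and 7 never, beside 58.8% of all probe sets called at least once. Of the 7, Ugt36D1 (mean 8.03) and Ugt303B3 (mean 5.51) had levels above 5, whereas Ugt307A1, Ugt35D1, Ugt35E2, Ugt37E1 and Ugt49B2 had means between 3.43 and 3.66. For these 5 dim genes, a change too small to lift the signal from its floor was not detectable.

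Deviations from the group mean were correlated over 46 arrays for the 17 members with means of 5 or more and for the mean level of 4 marker lists, 204 relations in all, with p-values from 100000 permutations within groups and adjusted over the 204. Values of one array share an RNA pool and a hybridisation. Among 136 pairs of UGT genes, 54 had a positive and 22 a negative Pearson correlation at an adjusted p below 0.05. Such correlations were frequent on these arrays: r was 0.4 or more in 56 of the 136 pairs and in 21.5% of all pairs of the 9743 probe sets with means of 5 or more, and -0.4 or less in 22 of the 136 and in 18.4% of all pairs. Ugt35A1 and Ugt35C1, which differed between the lines in opposite directions, deviated together (r = 0.75, rho = 0.71, permutation p = 1e-05 for both, the smallest possible here, adjusted p = 0.000136 for r and 0.000146 for rho, and r = 0.71 without the 2 arrays farthest from the median).

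The deviations of 13 of the 17 genes followed those of midgut markers and of 14 those of Malpighian tubule markers at an adjusted p below 0.05, and 2 genes ran against each list. With the midgut list, r was 0.4 or more for 13 genes and for 21.8% of the 9743 probe sets, and -0.4 or less for 2 genes and 33.3%. With the Malpighian tubule list, it was 0.4 or more for 13 genes and 28.1% of probe sets, and -0.4 or less for 2 genes and 37.9%. Ugt37D1 followed most closely the Malpighian tubule list (r = 0.85, rho = 0.81, permutation p = 1e-05, adjusted p = 0.000136, and r = 0.81 without the 2 farthest arrays). Ugt316A1 and Ugt36E1 ran against it, at r = -0.78 and r = -0.75 (rho = -0.67 and rho = -0.72, adjusted permutation p = 0.000255 and 0.000136, and r = -0.70 and r = -0.73 without the 2 farthest arrays). Fat body and yolk markers were followed by 1 gene at an adjusted p below 0.05, Ugt35B1 (r = 0.53, rho = 0.49, adjusted permutation p = 0.002, and r = 0.54 without the 2 farthest arrays). With this list, r was 0.4 or more for 3 genes and 5.67% of probe sets, and -0.4 or less for 0 genes and 6.99%. Ovary markers were followed by 0 genes, and Ugt35A1 ran against them (r = -0.40, rho = -0.40, adjusted permutation p = 0.0274, and r = -0.31 without the 2 farthest arrays). With the ovary list, r was 0.4 or more for 0 genes and 0.985% of probe sets. It was -0.4 or less for 0 genes and 0.749%, since the r of Ugt35A1 reached -0.40 only by rounding.

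The enzymes that supply UDP-sugars and a list of efflux and uptake transporters were read for comparison. Of 7 genes of nucleotide sugar supply, 4 were lower and 1 higher on malnutrition. They comprised UGP, which makes UDP-glucose (-0.32 ± 0.09, adjusted p = 0.00592), Galt (-0.84 ± 0.12) and Galk (-0.78 ± 0.07) of galactose use, Pgm1 (-0.27 ± 0.08), and sgl, the UDP-glucose dehydrogenase, which was higher (0.12 ± 0.04). UGP was dim, with a mean of 4.40. Of 15 transporters, 5 were lower and 1 higher on malnutrition, and 4 were higher and 0 lower in SR flies. All 4 of these were organic anion transporters (Oatp33Ea, Oatp58Db, Oatp58Dc and Oatp74D), a class to which many of the 15 belong. Of all probe sets, 13.5% were lower and 18.2% higher on malnutrition, and 11.4% were higher and 8.80% lower in SR flies. Of 10 regulators of xenobiotic and redox responses, 0 were lower and 3 higher on malnutrition (maf-S, ss and foxo), by 0.17 to 0.33. Among these, ss had a mean of 3.48, in the range of the male gland and testis markers. The list medians on malnutrition were -0.27 for sugar supply, -0.01 for transporters and 0.03 for regulators, beside -0.0019 for all probe sets.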

How the data were processed

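RNA of pools of whole females was hybridised to Affymetrix Drosophila 2.0 arrays. The authors excluded arrays of poor quality. For the remaining 46 they deposited log2 values summarised by RMA in R 2.7.0, which were used as given. The number of arrays limits the precision. Members and gene lists were chosen with earlier results of these data known. Genes were named from the platform annotation, and gene order and older symbols from RefSeq (Release 6), without coordinates.

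limma 3.58.1 (R 4.3.3) fitted 1 mean per group over all arrays. Two-sided contrasts were adjusted by Benjamini-Hochberg over 18952 probe sets, and main effects are unweighted means of single contrasts. Members named by rule were up to 3 changed most each way per contrast and the 3 brightest and 3 dimmest. Other members were named after their values were seen. Alternatives left out probe sets with a mean under 5, subtracted array medians, used trended and robust eBayes, added a replicate block, or left out each array. The fit was tested on simulated data.

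The labels number biological replicates but name no batch. Arrays with equal numbers deviated together (every r over 0.1) for ageing of C flies on optimal food (0.34 to 0.40) and for line in overfed old flies (0.12 to 0.19), and not in the other 18 contrasts of 2 groups. A p-value here reflects variation among pools of a line and food cohort.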

Additional observations from a re-analysis of the deposited data

Results flagged for a closer look

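In C flies, the change on malnutrition differed between the ages for 2 genes by the test of that difference. This is 5.71% of members, close to the 5.20% of all probe sets. It was -1.51 for Ugt35B1 and -0.71 for Ugt36A1 (old minus middle-aged).

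The 21 members named by rule were examined in groups of 4 arrays. Of 210 such pairs of member and group, 11 had 1 array far from the other 3 by Dixon's ratio (gap over range). Chance gives about 1 in 20, so the number found is close to that of chance. The ratio is relative, so the gap can be small where the other 3 arrays lie close together. Low arrays were SR malnutrition middle-aged replicate 4 for Ugt305A1 (3.62, others 4.09 to 4.18), SR malnutrition old replicate 1 for Ugt316A1 (10.05, others 10.81 to 10.85), C malnutrition middle-aged replicate 4 for Ugt35E2 (3.30, others 3.55 to 3.60), C optimal old replicate 2 for Ugt36A1 (6.36, others 6.66 to 6.66), SR malnutrition old replicate 2 for Ugt37A2 (4.32, others 4.85 to 4.95) and SR overfeeding old replicate 4 for Ugt50B3 (3.94, others 4.09 to 4.12). High arrays were C optimal old replicate 3 for Ugt302E1 (8.43, others 6.35 to 6.65), SR optimal middle-aged replicate 1 for Ugt317A1 (6.70, others 6.54 to 6.56), SR optimal old replicate 2 for Ugt35A1 (8.44, others 7.57 to 7.70), C optimal old replicate 4 for Ugt35B1 (7.80, others 7.47 to 7.51) and SR malnutrition old replicate 3 for Ugt35D1 (3.45, others 3.37 to 3.37).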

How the results depend on the processing

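No change of direction occurred among 110 called changes of single genes under any alternative. Subtracting array medians kept 101 of 110 calls, trended and robust eBayes 106, the replicate block 109 and the filter on dim probe sets all 73 it still tested, while leaving out single arrays kept 1877 of 2154. Without probe sets with a mean under 5, which removes 18 members, the counts of UGT genes called were 9 for line, 3 for age and 10 for malnutrition over all combinations, 1 for line in old flies on optimal food, and 1 each for age in overfed SR flies, line by age on optimal food and age by malnutrition in SR flies (0 with all probe sets). With array medians subtracted, which moved the median of all probe sets by between -0.10 and 0.11, they were 1 for age in SR flies on optimal food and for age by malnutrition in SR flies, 5 for line in middle-aged flies on malnutrition and 2 for malnutrition in middle-aged C flies. With the replicate block the count was 1 for age by malnutrition in SR flies, and 3 in place of 4 for line in overfed old flies. With single arrays left out, the counts ran from 5 to 8 for age and from 1 to 4 for overfeeding over all combinations. For age in C flies they ran from 0 to 1 on malnutrition, 5 to 12 on optimal food and 0 to 2 on overfeeding, and in SR flies from 0 to 1 on each diet. For line they ran from 1 to 2 on malnutrition, 4 to 9 on optimal food and 1 to 4 on overfeeding in middle-aged flies (3, 9 and 4 with all arrays), and from 2 to 5 on malnutrition and 0 to 3 on optimal food in old flies. For malnutrition they ran from 0 to 1 in middle-aged C, 0 to 3 in middle-aged SR and 7 to 17 in old SR flies, and for overfeeding from 0 to 1 in middle-aged SR flies. For line by age they ran from 0 to 2 on optimal food and 0 to 1 on overfeeding, for age by malnutrition from 2 to 5 in C and 0 to 1 in SR flies, and for line by malnutrition in old flies from 0 to 1. The causes were not tested, and fewer arrays or genes enter each of these fits. Another probe set per gene could not be tried, since each member had 1. The 11 members below 5 on all arrays lie near the floor, where changes are compressed.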
